A study of Mus musculus with 5 samples.

Results

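The 6 genes described here are the 4 platelet-derived growth factor (PDGF) ligand genes, Pdgfa, Pdgfb, Pdgfc and Pdgfd, and the 2 receptor genes, Pdgfra and Pdgfrb. They were taken by symbol, and 6 of the 32285 genes of the mouse kidney count table carry one of these symbols. PDGF ligands are secreted dimers. The receptors are tyrosine kinases on the surface of mesenchymal cells such as fibroblasts, pericytes and mesangial cells. In the kidney, PDGF-B from endothelium is known for recruiting mural cells to vessels, and PDGF signals to fibroblasts and pericytes are known for driving matrix-producing cells during scarring. PDGF-A and PDGF-C bind mainly PDGFR-alpha and PDGF-D mainly PDGFR-beta, whereas PDGF-B binds both.

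The study compared kidneys 1, 3, 14 and 28 days after unilateral ischemia-reperfusion (UIR), a model in which the left renal pedicle was clipped for 35 minutes and released, with a Sham kidney that had the operation without the clip. Male C57BL/6J mice of 6 to 8 weeks were operated on, the labels name no transgene or drug for any group, and each kidney sample came from 3 mice. The labels list 1 sample for each of the 5 conditions, whereas the methods describe a merge of more matrices than that, and whether a library holds 1 or several mice is not settled. Here 10x Genomics 3′ single-cell RNA-seq was read into 1 merged table of 5 libraries. A number at the end of each cell barcode tells the libraries apart, but no label ties a number to Sham or to a day, so the libraries are named by number and no condition is compared. No test of conditions was possible, none was run between classes, and all intervals are 95% intervals that cover counting error only.

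After calling and filtering, 57743 cells were kept, between 8287 and 19027 per library, with library medians from 4038 to 5326 unique molecular identifiers (UMIs, counted molecules). Levels are given as CPM, which scales the UMIs of a gene in a class to the total UMIs of that class. Barcode sequences found in more than 1 library made up 1.22% of kept cells. The labels give the cell type as goblet cell, a mucus cell of other organs. Of 7 goblet markers, none was seen in 10% of kept cells and their sum was 0.55 CPM, against 2972 CPM for the proximal tubule transporter Slc34a1. Cells are therefore described by their own markers.

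Cells were grouped by clusters built without the 6 genes, and a cluster took a name only from fixed markers. Tubule cells were the bulk, with 36025 proximal tubule-like, 2344 thick ascending limb-like and 932 distal convoluted tubule-like cells. A class of 308 injured epithelium-like cells was led by Vcam1, Ubd, Stra6 and Aoc1, and had all 6 of its markers, such as Havcr1 and Krt20, in at least 10% of cells. Cluster C5, 3961 cells led by Cxcl1 and Havcr1, took no name. Its leading genes held more markers of injured epithelium than of proximal tubule, its best-scoring class. Cells of the kinds known to bear PDGF receptors were few, and so were endothelial-like cells. There were 69 mural-like cells led by Myh11, Ren1 and Rgs5, 52 fibroblast-like cells led by Col3a1, Dcn and Col1a1, and 354 endothelial-like cells. The fibroblast-like cells also held 4745 CPM of monocyte/macrophage markers, against 10469 CPM of fibroblast markers. A further cluster of 303 cells, called S2 here, was led by the contractile gene Tagln, the matrix gene Tnc, Akap12, Cyp1b1 and Map1b. It scored too low for any class and was given no name. Its smooth muscle markers summed to 7014 CPM, its fibroblast markers to 384 CPM and its pericyte markers to 149 CPM.

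Pdgfra was found in the fewest classes, whereas Pdgfc, like Pdgfa and Pdgfb, had UMIs in all 15 named classes. The stretches just before the start of Pdgfra and of Pdgfc are shown as a reference for these contrasting patterns. They are 120 bases each on the plus strand, from RefSeq on GRCm38.p6, at chr5:75152131-75152250 and chr3:81036296-81036415.
Pdgfra: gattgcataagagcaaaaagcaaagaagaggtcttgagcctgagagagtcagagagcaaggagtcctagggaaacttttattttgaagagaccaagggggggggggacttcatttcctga
Pdgfc: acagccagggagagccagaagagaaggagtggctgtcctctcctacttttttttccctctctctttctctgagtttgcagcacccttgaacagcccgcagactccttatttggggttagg
Capitals would mark a GC box (GGGCGG or CCGCCC on the printed strand) or a TATA box (TATAAA or TTTATA), and neither stretch held one. Over 32851 mouse promoters of the same length, 26.5% held the GC box and 6.34% the TATA box. The GC content was 46.7% for Pdgfra and 51.7% for Pdgfc, against a median of 54.2%. Entries were found for 4 of the 6 genes. The Pdgfa stretches, not shown, held 1 and 2 GC boxes, at 66.7% and 70.8% GC. The Pdgfd stretch, also not shown, held neither box at 56.7% GC. In the GENCODE vM21 annotation (GRCm38), Pdgfra (ENSMUSG00000029231) lies at chr5:75152292-75198215, Pdgfc (ENSMUSG00000028019) at chr3:81036416-81214040 and Pdgfd (ENSMUSG00000032006) at chr9:6168584-6378850, all on the plus strand. Pdgfa (ENSMUSG00000025856) lies at chr5:138976014-138997370 and Pdgfb (ENSMUSG00000000489) at chr15:79995874-80014977 on the minus strand. Exons of Pdgfa, Pdgfc and Pdgfra overlap exons of the antisense genes 6330403L08Rik, Gm16000 and Gm42802, respectively, and how the counting used strand is not given in the sources used here.

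Pdgfrb (ENSMUSG00000024620), the receptor of mural cells, lies on the plus strand of chromosome 18 and was highest in mural-like cells. It gave 42 UMIs there, or 179 CPM (129 to 242), and 65 UMIs or 130 CPM (100 to 166) in fibroblast-like cells, whose intervals overlap. S2 had 249 UMIs or 80.5 CPM (70.9 to 91.2), and it supplied 43.0% of all Pdgfrb UMIs in kept cells from 0.52% of the cells. The unnamed clusters S10, with 90.7 CPM (63.2 to 126), and S14, with 85 cells and 11 UMIs or 81.8 CPM (40.8 to 146), had levels whose intervals overlap that of S2. Proximal tubule-like cells had 12 UMIs, or 0.056 CPM, and thick ascending limb-like cells had 0, where 3 UMIs would make 0.23 CPM. Mural-like cells, with a median of 2559 UMIs, showed a Pdgfrb UMI in 40.6% of cells, and proximal tubule-like cells, which were deeper with a median of 5266 UMIs, in 0.033%. With every cell thinned to 1000 UMIs the shares were 18.8% and 0.0092%. The mural-like level rested on library 2, where it was 328 CPM, and was 83.9 CPM without that library. It was 112 CPM with cells gated by their own markers, 110 CPM with the first step of cell calling alone and 328 CPM after ambient counts were subtracted. The S2 level was 42.9 CPM when each library had the same weight, including libraries 4 and 5 with 14 and 7 S2 cells.

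Pdgfra was seen in far fewer cells, 64 against 298 for Pdgfrb. Fibroblast-like cells gave 68 of the 108 Pdgfra UMIs in kept cells, 63.0% of them, at 136 CPM (106 to 172), and 31 of 52 cells held at least 1. Mural-like cells had 0 UMIs, where 3 UMIs would make 12.8 CPM. Proximal tubule-like cells had 5 UMIs in 36025 cells, 0.023 CPM, and no UMI was seen in the 5 named immune classes. Endothelial-like cells had 5 UMIs or 2.34 CPM (0.76 to 5.46). S2 had 4 UMIs, 1.29 CPM (0.35 to 3.31), so its Pdgfrb came with little Pdgfra. Of the 31 fibroblast-like cells with Pdgfra, 16 also had a Pdgfrb UMI. At 1000 UMIs per cell 1 of 12 did. The fibroblast-like level was 250.5 CPM with cells gated by their own markers and 272 CPM as the mean over cells of each cell's CPM.

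An unnamed cluster of 166 cells, S10, was led by genes such as Clic3, Rab3b and Cdkn1c and had all 4 mesangial markers in at least 10% of cells. It held 35 Pdgfrb UMIs, 90.7 CPM (63.2 to 126), and 10 Pdgfra UMIs, 25.9 CPM (12.4 to 47.6). Of its 166 cells, 126 came from library 2. Podocyte-like cells proper numbered 79 at a median of 750 UMIs, and a single Pdgfrb UMI was seen among them.

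**Figure D1:**
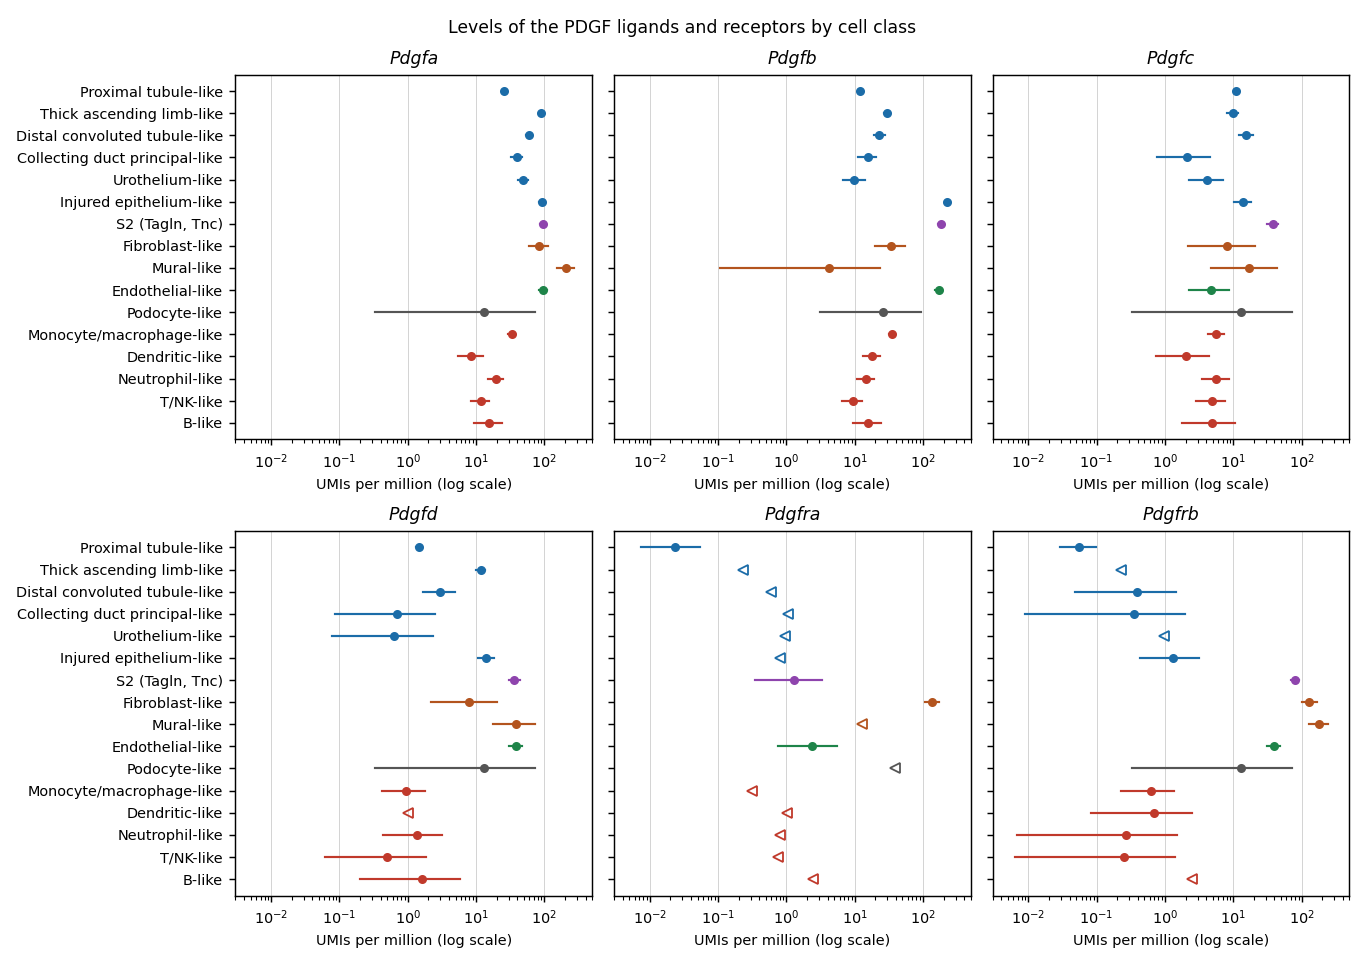
Level of each of the 6 genes in 15 named classes and the unnamed cluster S2, in CPM on a log axis, with points for the pooled cells, lines for the 95% Poisson interval, and open triangles at the level that 3 UMIs would make where no UMI was seen. Tubule classes are blue, S2 purple, stromal orange, endothelial green, podocyte-like grey and immune red. Pdgfra stands out in fibroblast-like cells at 136 CPM and Pdgfrb in mural-like, fibroblast-like and S2 cells, whereas Pdgfa, Pdgfb and Pdgfc have UMIs in every class drawn.

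With all libraries pooled, injured epithelium-like cells had 850 Pdgfb UMIs or 226 CPM (211 to 242), S2 had 566 UMIs or 183 CPM (168 to 199) and endothelial-like cells had 361 UMIs or 169 CPM (152 to 187). The pooled intervals of S2 and endothelial-like cells overlap, and both lie below that of the injured class. This order turned with the weight of the libraries, since with equal weights S2 had 252.7 CPM and the injured class 176 CPM. Those weights count libraries 4 and 5 in full, where S2 had 14 and 7 cells and the injured class 25 and 8. In libraries 1 and 2 the injured class lay above S2. In library 3 the injured class lay below endothelial-like cells. The small unnamed clusters S13, at 151 CPM (96.6 to 224), and S14, at 104 CPM (56.9 to 175), had intervals that overlap those of S2 and endothelial-like cells, and that of S13 also reaches the injured class. Mural-like cells, which had the highest Pdgfrb, gave 1 Pdgfb UMI, or 4.26 CPM (0.11 to 23.8). Proximal tubule-like cells stood at 12.01 CPM. They held 67.3% of all UMIs and 37.1% of Pdgfb UMIs, while the 308 injured cells held 12.2% of Pdgfb. The unnamed cluster C5, also with injury markers, held 16.4% of Pdgfb at 36.0 CPM in 3961 cells. C3, an unnamed cluster of 4779 cells with Havcr1 among its leading genes, had 15.5 CPM. A Pdgfb UMI was seen in 65.3% of injured cells at a median of 9239 UMIs and in 2.24% of T/NK-like cells at 1772 UMIs. The shares at 1000 UMIs were 21.8% and 0.66%. Of the injured cells, 168 were from library 2, and the level without that library was 141 CPM. Cells gated by the injury markers, a looser class, gave 60.8 CPM.

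The injured class was made of 2 clusters, of which S4, with 263 cells, had 233 CPM of Pdgfb (218 to 250) and S19, with 45 cells, had 87.5 CPM (50.9 to 140). Their intervals do not overlap.

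The level of Pdgfb differed between libraries in each of these sources. In injured epithelium-like cells it was 184 CPM in library 1, 321 CPM in library 2, 78.3 CPM in library 3 and 135 CPM in library 4. In endothelial-like cells it was 83.8, 299, 148, 92.9 and 202 CPM in libraries 1 to 5. In S2 it was 134, 254 and 80.1 CPM in libraries 1 to 3, with fewer than 20 cells in the others. Library 2 was thus the highest of those with a value in all 3 sources. In proximal tubule-like cells the order was another one, with 7.45, 12.2, 25.1, 10.4 and 6.41 CPM in libraries 1 to 5 and library 3 highest. The class's cells sat in different clusters in each library. Of the 6887 proximal tubule-like cells of library 3, 3118 were in C2, a cluster with 29.8 CPM of Pdgfb, while library 1 had 2428 and 2350 cells in C8 and C10, at 6.10 and 2.55 CPM, and library 5 had 3296 in C1, at 5.99 CPM. What separates the libraries cannot be told apart here, since a library may be a condition, a preparation or both.

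Barcodes at ranks 45000 to 90000 of each library, taken as empty droplets, gave 6.18 to 20.6 CPM of Pdgfb. They held 16 to 121, 10 to 85, 15 to 489, 26 to 203 and 11 to 225 UMIs in libraries 1 to 5. In library 3 they thus reached close to the 500 UMIs from which barcodes were tested. Whether all of these barcodes are empty was not tested. The proximal tubule-like Pdgfb value was above that of its own library's droplets in libraries 1 and 3 and below it in libraries 2, 4 and 5. Values near these levels, such as the 9.34 CPM of T/NK-like cells, cannot be read as expression.

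Pdgfa, the broadest ligand, was highest in mural-like cells at 48 UMIs or 205 CPM (151 to 271). With cells gated by their own markers that level was 133 CPM, and 366 CPM after ambient counts were subtracted. Endothelial-like cells at 96.0 CPM, S2 at 95.4, injured epithelium-like cells at 92.2, thick ascending limb-like cells at 89.0 and fibroblast-like cells at 84.0 followed with overlapping intervals. Distal convoluted tubule-like cells had 59.4 CPM and proximal tubule-like cells 25.7 CPM. In endothelial-like cells Pdgfa was 93.4, 124, 66.1, 175 and 65.2 CPM in libraries 1 to 5, the last 2 from 17 and 11 UMIs. In injured epithelium-like cells it was 67.9, 119, 57.8 and 73.1 CPM in libraries 1 to 4, so library 2 was again the highest there. In thick ascending limb-like cells, which reabsorb salt in the loop of Henle, Pdgfa was 107, 126, 83.7, 99.7 and 26.2 CPM in libraries 1 to 5. Library 5 was low there and also in distal convoluted tubule-like cells, at 24.1 CPM against 67.1 to 96.7 CPM in the other 4. The limb class was made of 2 clusters, C13 with 100.3 CPM (94.6 to 106) and C21 with 16.9 CPM (11.4 to 24.1). Library 5 had 4 cells in C13 and 250 in C21, while library 3 had 1414 and 38. The part of this make-up in the library values was not tested. Proximal tubule-like cells ranged from 22.1 to 29.9 CPM, and in each of the 5 libraries lay above the empty droplets, which gave 6.18 to 19.98 CPM.

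**Figure D2:**
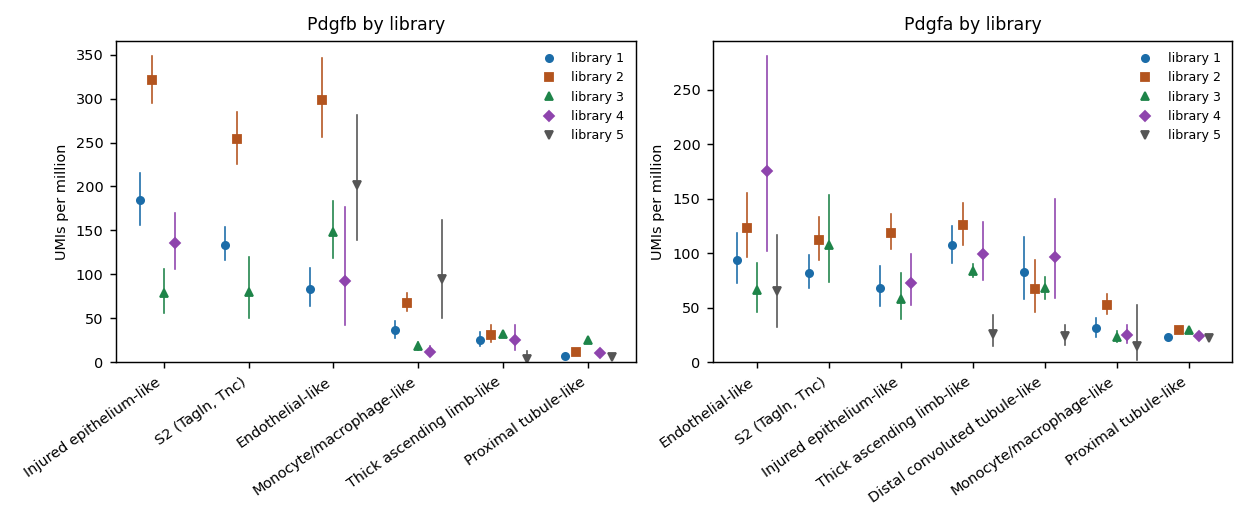
Pdgfb (left) and Pdgfa (right) in CPM by library number for classes with at least 20 cells in that library, with lines for the 95% Poisson interval. Library 2 is highest for Pdgfb in injured, S2 and endothelial-like cells, while Pdgfa in proximal tubule-like cells stays between 22.1 and 29.9 CPM.

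Pdgfc and Pdgfd, the ligands that are released with a domain that must be cut off before they act, were scarcer. Proximal tubule-like cells held 70.0% of Pdgfc UMIs, close to their 67.3% of all UMIs, at 11.04 CPM. Distal convoluted tubule-like cells had 15.4 CPM (12.2 to 19.2), or 23.5 CPM when gated, and S2 had 116 UMIs or 37.5 CPM (31.0 to 45.0). In proximal tubule-like cells it was 13.96, 11.1, 13.1, 8.36 and 8.90 CPM in libraries 1 to 5. Empty droplets gave 3.71 to 11.6 CPM of Pdgfc, and immune classes, at 2.04 to 5.64 CPM, lay below the droplets of libraries 2 to 5. The proximal tubule-like level was below the droplets of its own library in library 4 and the same in library 5, at 8.90 CPM each. In S2 the level was 35.8, 38.0 and 27.9 CPM in libraries 1 to 3.

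Pdgfd was highest in endothelial-like, mural-like and S2 cells. Endothelial-like cells had 82 UMIs or 38.4 CPM (30.5 to 47.7), mural-like cells 9 UMIs or 38.4 CPM (17.5 to 72.8) and S2 112 UMIs or 36.2 CPM (29.8 to 43.6), 3 values that do not differ beyond counting error. Injured epithelium-like cells at 14.1 CPM and thick ascending limb-like cells at 11.7 CPM stood above proximal tubule-like cells at 1.46 CPM. Endothelial-like cells had 42.6, 39.5, 32.2, 61.9 and 23.7 CPM of Pdgfd in libraries 1 to 5, the last 2 from 6 and 4 UMIs. In thick ascending limb-like cells Pdgfd was 25.5, 19.3, 7.26, 13.7 and 26.2 CPM in libraries 1 to 5. Library 3 was lowest there and also in proximal tubule-like cells, at 0.43 CPM against 1.13 to 2.42 CPM in the other 4. Clusters of these classes differed too, with Pdgfd at 9.59 CPM in C13 and 25.4 CPM in C21, and at 0.38 CPM in C2 and 2.40 CPM in C1. The part of cluster make-up in the library values was not tested. Dendritic-like cells had none, and 3 UMIs would make 1.02 CPM there.

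The endothelial-like cells fell into 3 clusters. S7, with 198 cells led by Fbln5 and Jam2, had 169 CPM of Pdgfb, 117 CPM of Pdgfa and 41.7 CPM of Pdgfd. S12, with 111 cells led by Kdr and Ehd3, a gene of glomerular endothelium, had 205 CPM of Pdgfb and 62.9 CPM of Pdgfa. S18, with 45 cells led by Slc14a1, Cldn5 and the arterial connexin Gja5, had 101 CPM of Pdgfb and 26.3 CPM of Pdgfa. The Pdgfb intervals of S7 (148 to 191) and S12 (165 to 251) overlap, and that of S18 (64.0 to 151) overlaps S7 only.

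In myeloid cells Pdgfb and Pdgfa were uneven. Monocyte/macrophage-like cells held 35.5 CPM of Pdgfb (31.9 to 39.5) and 33.1 CPM of Pdgfa (29.6 to 37.0). After re-clustering without the 6 genes, a set of 396 cells, Y5, led by Ccl8, Ccl4, C1qa and C1qc, the complement genes of resident macrophages, had 79.5 CPM of Pdgfb (65.9 to 95.1) and 39.1 CPM of Pdgfa. A set of 159 cells, Y11, led by Gpnmb, Mmp12 and Trem2, had 67.4 CPM of Pdgfa (55.7 to 80.8) and 47.0 CPM of Pdgfb. Y6, led by the monocyte genes Chil3, F13a1 and Ly6c2, had 4.24 CPM of each. Neutrophil-like cells as a class had 72 UMIs or 19.4 CPM of Pdgfa. Y1, 690 cells led by Il1r2 and Mmp9, had 1 UMI, Y2 had 8 UMIs or 9.24 CPM, and Y10, 185 neutrophil-like cells, had 0. Y4 had 123 UMIs or 32.1 CPM at a median of 8257 UMIs per cell, against 1241 in Y1 and 1323 in Y2. Of the 425 cells of Y4 only 215 were neutrophil-like, so its UMIs are not all part of that class. Monocyte/macrophage-like Pdgfb was 36.4, 67.9, 18.2, 11.3 and 94.8 CPM in libraries 1 to 5, the last from 13 UMIs. Y5 had 180, 150, 14, 8 and 44 cells in libraries 1 to 5, whereas 373 of 543 cells of Y3, at 20.5 CPM of Pdgfb, and 218 of 311 cells of Y6 were from library 3.

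Families of classes were set against all other kept cells over the 14975 genes with at least 100 UMIs, counting a gene as higher when its CPM was at least 4-fold above the rest. The stromal family (mural-like and fibroblast-like, 121 cells) had 3 of the 6 genes higher, beside 12.6% of all genes. Pdgfra was higher by 9.53 on the log2 scale (8.94 to 10.13), Pdgfrb by 6.62 (6.30 to 6.93) and Pdgfd by 2.69 (1.78 to 3.47). Of the 108 Pdgfra UMIs in kept cells, 40 lay outside this family. Pdgfra thus reached the minimum of 100 UMIs only through the family in which it was high. The Pdgfra ratio was 10.61 without library 2 and 5.90 with cells gated by markers, and the Pdgfrb ratio 7.53 without library 1. Pdgfa stood at 1.90, or 3.74-fold, and lay on either side of 4-fold under the alternatives, from 1.28 with at most 10% mitochondrial counts to 2.60 as means over cells, with 2.06 without library 1 and 2.01 without library 3. Pdgfb at 0.17 and Pdgfc at 0.04 had intervals that include no difference. The unnamed S2 was not part of this family and counted among the other kept cells. It held 249 of their 472 Pdgfrb UMIs and 566 of their 6951 Pdgfb UMIs. Ratios with S2 placed in the family were not computed. By library the stromal Pdgfrb level was 112, 234 and 118 CPM in libraries 1 to 3, and Pdgfra was 90.3, 76.4 and 161 CPM, with 8 and 5 cells in libraries 4 and 5.

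In the endothelial family Pdgfrb (log2 ratio 4.64), Pdgfd (3.92), Pdgfb (3.02) and Pdgfra (2.85, 1.2 to 4.12) passed 4-fold, beside 12.6% of all genes, and Pdgfa stood at 1.56. The Pdgfra interval reaches below 4-fold, and its 5 UMIs lay in 3 cells of S12, a cluster with 418 CPM of mesangial markers. Empty droplets gave 0.31, 1.62, 2.33, 11.5 and 2.07 CPM of Pdgfra in libraries 1 to 5, beside 2.34 CPM in endothelial-like cells. In library 4 these droplets also held 5458 CPM of fibroblast markers, against 26.6 to 971 CPM in the others. Over all libraries they gave 0.96 to 8.08 CPM of Pdgfrb and 0.81 to 1.62 CPM of Pdgfd. S2 had Pdgfrb (6.27), Pdgfd (3.89) and Pdgfb (3.18) past it, beside 11.8% of all genes, with Pdgfc at 1.86 and Pdgfa at 1.56. Injured epithelium-like cells had Pdgfb (3.54, 3.44 to 3.65) and Pdgfd (2.42) past it, beside 2.2% of all genes. None of the 6 passed in the tubule family (44274 cells, beside 1.1% of all genes), which also holds the injured and urothelium-like classes and the unnamed clusters C5 and S9 of 3961 and 177 cells, or the immune family (6384 cells, beside 10.1%). In the tubule family the log2 ratio was -7.29 for Pdgfrb, -7.06 for Pdgfra, -1.17 for Pdgfb and 0.33 for Pdgfc.

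Endothelial-like Pdgfrb, at 38.86 CPM (30.9 to 48.2), moved with mural markers. By library it was 28.8, 54.9, 33.95, 20.6 and 53.3 CPM in libraries 1 to 5. Of its 83 UMIs, 82 lay in the 132 cells that also held a UMI of a mural marker, at 68.6 CPM (54.6 to 85.2) and a median depth of 7841 UMIs. The 222 cells without one, at a median of 2675 UMIs, had 1 UMI or 1.06 CPM (0.027 to 5.92). Pdgfb was 175 CPM (152 to 200.3) in the former and 162 CPM (137 to 189) in the latter. A gate on each cell's own markers in place of clusters gave 4.57 CPM of Pdgfrb in endothelial-like cells, and the mean over cells of each cell's CPM gave 22.5 CPM. As a class the endothelial-like cells summed to 1646 CPM of smooth muscle markers, 672 CPM of pericyte markers and 389 CPM of renin cell markers, with no marker of these lists at 0. The part of mural RNA in the endothelial-like Pdgfrb was not tested further.

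In S2 the same division was made by endothelial and monocyte/macrophage markers. Pdgfb was 147 CPM (131 to 165) in the 235 cells without such a UMI and 251 CPM (222 to 283) in the 68 cells with one. Pdgfrb was 86.2 CPM in cells without and 70.0 CPM in cells with, with overlapping intervals. In injured epithelium-like cells Pdgfb was 233 CPM in the 234 cells without and 213 CPM in the 74 with. Endothelial markers summed to 4.52 CPM in the injured class and 29.4 CPM in S2, against 3910 CPM in endothelial-like cells.

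**Figure D3:**
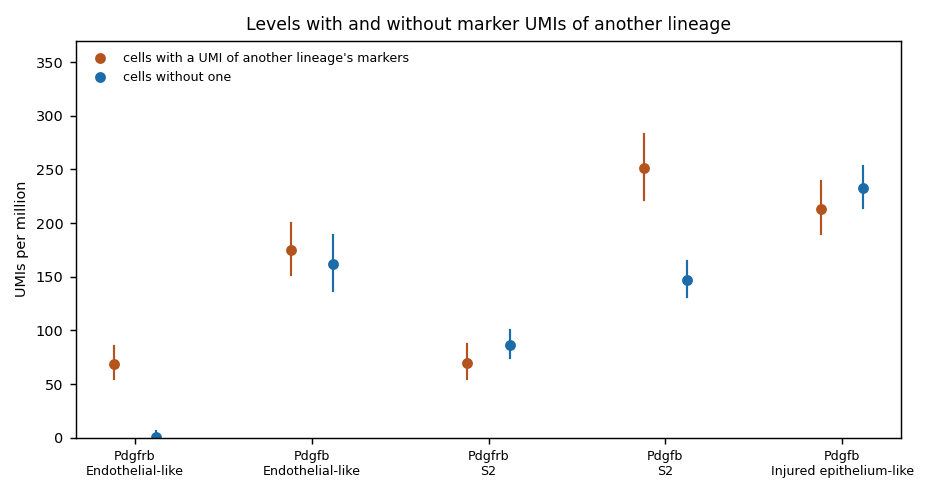
Pdgfb and Pdgfrb in CPM, with 95% Poisson intervals, in cells with (orange) and without (blue) a UMI of another lineage's markers, which are mural markers for endothelial-like cells and endothelial or monocyte/macrophage markers for S2 and injured epithelium-like cells. Endothelial-like Pdgfrb is 68.6 CPM with and 1.06 CPM without, while injured epithelium-like Pdgfb is 213 and 233 CPM.

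S2 cells held UMIs of both a receptor and its ligand as a population. Of 303 cells, 101 had a Pdgfrb UMI, 139 a Pdgfb UMI and 57 both. A Pdgfb UMI was thus seen in 56.4% (46.2 to 66.3) of cells with Pdgfrb and 40.6% (33.8 to 47.7) of those without, where deeper cells have more of both. At 1000 UMIs per cell, 26 cells had Pdgfrb, 29 had Pdgfb and none had both, so it was not detectable at that depth whether single cells express them together. In mural-like cells 13 of the 28 cells with Pdgfrb had a Pdgfa UMI, and none of the 28 had a Pdgfb UMI. By library, S2 Pdgfrb was 88.2, 94.97 and 13.9 CPM in libraries 1 to 3, the last from 4 UMIs.

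The genes around the receptors were described from lists. Of the 5 ligand binders and co-receptors with 100 UMIs, all 5 (Nrp1, Lrp1, Sparc, Thbs1 and Hspg2) were at least 4-fold higher in the stromal family and in S2, beside 12.6% and 11.8% of all genes, with median log2 ratios of 4.39 and 3.71 against 0.43 and 0.41 over all genes. Sparc, a matrix protein that binds PDGF-B, was at 3833 CPM in the stromal family and 2305 CPM in S2. Of the 10 matrix and myofibroblast genes with enough UMIs, 10 were higher in both, beside the same shares of all genes, with medians of 6.44 and 5.999. Acta2, Tagln, Col1a1 and Col3a1 of this list are also markers that named the classes, and Tagln and Tnc lead S2. Postn, a matrix gene left out of the list counts for low UMIs, was at 53.1 CPM in the stromal family and 1.62 CPM in S2.

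Among intracellular partners, of 16 adaptors and effectors 0 were 4-fold higher in the stromal family (median 0.57), 1 in S2 (Shc1) and 2 in the endothelial family (Sos1 and Plcg1), where Src was at least 4-fold lower. The shares over all genes were the 12.6%, 11.8% and 12.6% given above. Among 9 brakes, Socs3, Spry1 and Spry2 were higher in both the stromal family and S2, beside 12.6% and 11.8% of all genes. The endothelial family had Ptpn12, Socs3 and Spry1 higher, beside 12.6%, and the immune family Ptpn1 and Socs3, beside 10.1%. Spry1, an inhibitor of the Ras pathway, was at 97.4 CPM in S2 against 6.24 CPM elsewhere. Of 8 genes for ligand processing, which are proteases and the urokinase receptor Plaur, 2 were higher in the stromal family (Plat and Mmp14). In S2 3 were higher (Pcsk6, Plat and Mmp14), in the endothelial family 3 (Plat, Plaur and Mmp14) and in the immune family 2 (Plaur and Mmp14). Injured cells had 1 (Plat), beside 2.2% of all genes. Plau was at least 4-fold lower in the endothelial family and Plat in the immune family. For these and for Src, the share of all genes at least 4-fold lower is not given. Plat, which cuts PDGF-C, was at 597 CPM in the endothelial family, 348 in S2, 174 in the stromal family and 133 in injured cells. The cells outside each of these groups had 13.1 to 16.7 CPM. Plau, which cuts PDGF-D, was at 122 CPM in injured cells, 1.93-fold above the rest, and at 9.83 CPM in the endothelial family.

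Of the related VEGF branch, 6 of 8 genes were higher in the endothelial family, beside 12.6% of all genes, among them the receptors Flt1 at 802 CPM and Kdr at 469 CPM. Vegfd and Pgf were higher in the stromal family, beside 12.6% of all genes. Kdr was lower there, and the share of all genes that were lower is not given. The kin receptors Csf1r, Flt3 and Kit were all higher in the immune family, beside 10.1% of all genes, where Csf1r reached 173 CPM. Csf1r was also 4.11-fold higher in the stromal family, whose fibroblast-like cells held the monocyte/macrophage markers given above. Of the 4 ligands of these kin, Kitl, Csf1 and Flt3l were higher in the stromal and endothelial families, beside 12.6% of all genes in each. Csf1, Il34 and Flt3l were higher in S2, beside 11.8%, and Csf1 and Flt3l in the immune family, beside 10.1%. In injured epithelium-like cells Csf1 and Il34 were higher, beside 2.2% of all genes, at 40.4 and 90.3 CPM.

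Over the 15 named classes, the genes most like each member by Pearson r of log2(CPM + 1) were read as a description, since classes share libraries. Pdgfra was closest to the fibroblast genes Mfap5 (0.99), Pdgfrl (0.99) and Nkd2 (0.97), and Pdgfrb to Prkg1 (0.98), Gucy1a1 (0.97) and Tagln (0.96), a pair of which belong to the nitric oxide and cGMP path of contractile cells. Pdgfd was closest to Adamts5, Foxc1 and Syde1 (0.89 to 0.90), and Pdgfa to Jkamp, Zc2hc1a and Hspb2 (0.91 to 0.92). Pdgfb and Pdgfc had weaker partners, Abl2 at 0.84 and Fbxw5 at 0.83. With a minimum of 1000 UMIs in place of 100, Pdgfra shared none of its 3 and Pdgfrb 1, and the collagen genes Col6a1, Col1a1 and Col3a1 took the place beside Pdgfra. This was fixed by the minimum itself. Mfap5, Pdgfrl and Nkd2 had 229, 166 and 222 UMIs, and Prkg1 and Gucy1a1 253 and 952, so all were left out.

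Kept cells did not hold most of the Pdgfra that was counted. Of 301 Pdgfra UMIs over all barcodes, 35.9% (30.5 to 41.6) lay in kept cells and 62.5% in barcodes under 500 UMIs, against 66.2% and 15.5% of all UMIs. Pdgfrb had 73.4% of 789 UMIs in kept cells, and the ligands 72.2 to 81.7%. In library 4, 93 of 95 Pdgfra UMIs and 57 of 69 Pdgfrb UMIs lay under 500 UMIs, while in library 1 only 10 of 56 and 17 of 279 did. The stromal family held 44, 38, 26, 8 and 5 kept cells in libraries 1 to 5.

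**Figure D4:**
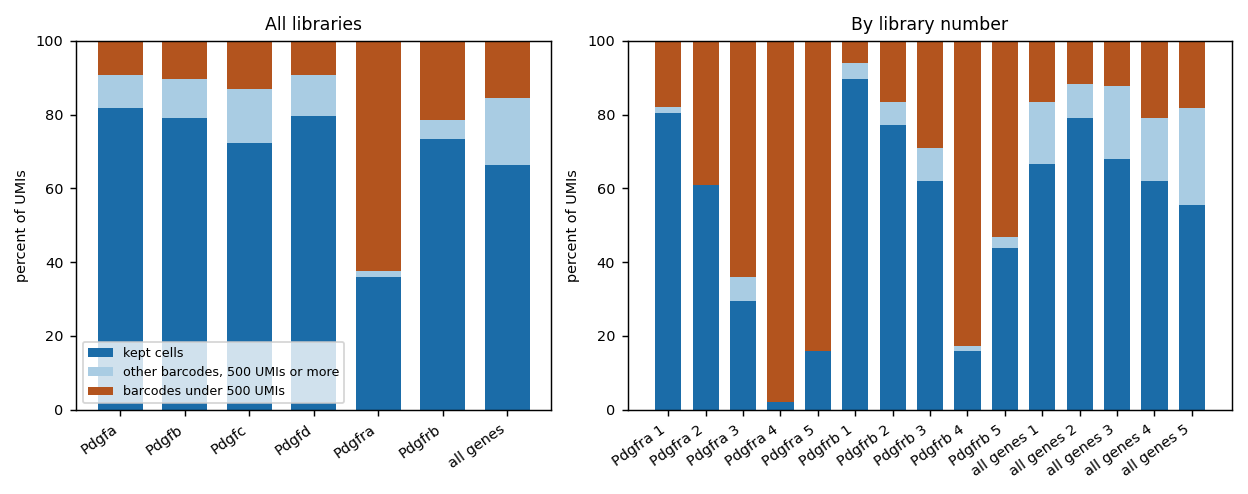
Percent of UMIs in kept cells (dark blue), in other barcodes of 500 UMIs or more (light blue) and in barcodes under 500 UMIs (orange), for the 6 genes and all genes over all libraries (left) and for Pdgfra, Pdgfrb and all genes by library number (right). Pdgfra lies mostly under 500 UMIs, up to 97.9% in library 4.

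Fibroblast markers had the same place. In libraries 3, 4 and 5, 93.1%, 98.9% and 99.1% of the UMIs of the 6 fibroblast markers were in barcodes under 500 UMIs, against 7.72% and 16.4% in libraries 1 and 2. Barcodes of 10 to 99 UMIs held the peak, with Pdgfra at 35.9, 86.0 and 49.97 CPM and fibroblast markers at 16700, 37564 and 24408 CPM in libraries 3, 4 and 5. In proximal tubule-like kept cells of library 4, Pdgfra had 1 UMI. Levels of both receptors per class are therefore those of the cells that passed calling, and the part of these small barcodes in them was not tested. Fewer cells of a type and less RNA kept per cell cannot be told apart here, and other sources were not tested. Of 1484 small barcodes rich in fibroblast markers in library 3, 899 had a sequence also found among the 2314 of library 4. In kept cells, 1.22% had a sequence found in more than 1 library.

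**Figure D5:**
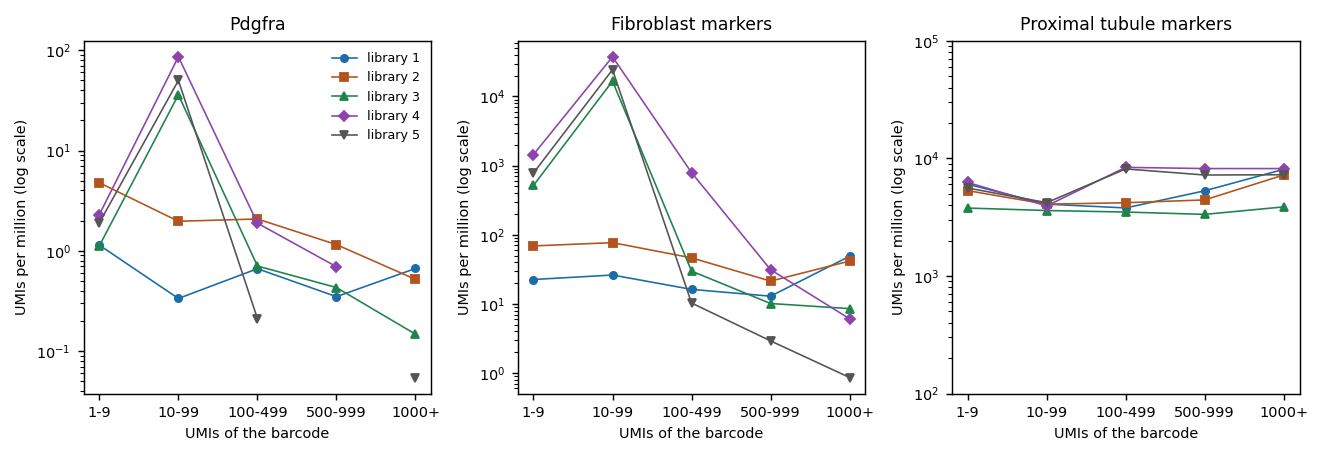
Level of Pdgfra, of the 6 fibroblast markers and of the 7 proximal tubule markers in CPM (log scale) in barcodes grouped by their UMI total, by library number, with levels of 0 not drawn. In libraries 3, 4 and 5 Pdgfra and the fibroblast markers peak at 10 to 99 UMIs, and the proximal tubule markers do not.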

How the data were processed

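Mouse kidney cells from 5 conditions, 1 sample each, were profiled by 10x Genomics 3′ single-cell RNA-seq. The deposited table holds raw UMI counts for 32285 genes and all barcodes of 5 merged libraries, which the authors made with Cell Ranger 6.0 on mm10, per the labels; cells had not been called, and the table carries no cell types. Library totals over all barcodes were between 82426945 and 139382799 UMIs, and 0 columns of other samples were set aside. Members were matched by symbol. The members, marker lists and pathway lists were chosen with earlier results of these data known.

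Barcodes were called in 2 steps, as Cell Ranger does, by size and then by a test against the ambient profile (ranks 45000 to 90000, at least 500 UMIs, up to 20000 tested per library), giving 70462. Library 3 reached that limit at 661 UMIs. Of these, 518 with under 200 genes and then 12201 with over 25% mitochondrial counts were left out, and 57743 remained with a median of 4604 UMIs. Clusters (leidenalg 0.10.2, resolution 1, 2000 variable genes) used none of the 6 genes. Doublets were scored with Scrublet and kept, and an alternative left out the highest scores. A cluster was named with 3 markers in at least 10% of cells and a score of 0.3. CPM has exact Poisson, shares exact Clopper-Pearson and ratios exact binomial intervals. With 1 sample a condition and no map from library to condition, no test was run. The ratio step was tested on simulated data. Named were the 6 genes, all pathway genes, the 3 genes most like each member and the 5 leading genes of a cluster. Alternatives covered calling, filters, naming, clustering, scaling, ambient RNA, doublets, thinning and single libraries.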

Additional observations from a re-analysis of the deposited data

Results flagged for a closer look

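Barcodes under 500 UMIs, which no comparison of cells uses, held 188 of the 301 Pdgfra UMIs and 169 of the 789 Pdgfrb UMIs. Each Pdgfra UMI lay in a barcode of its own. In library 4 the same barcodes held 41115 of 41584 fibroblast marker UMIs. Barcodes under 500 UMIs with at least 3 fibroblast marker UMIs that made up at least 10% of their UMIs numbered 0 in libraries 1 and 2, 1484 in library 3, 2314 in library 4 and 860 in library 5, with median totals of 26, 56 and 19 UMIs. Of these, 899 barcode sequences were shared between libraries 3 and 4, 485 between libraries 3 and 5 and 586 between libraries 4 and 5. Among kept cells, 1.22% had a barcode sequence found in more than 1 library. Pooled, they held 206027 UMIs, with 36 UMIs or 175 CPM (122 to 242) of Pdgfra, 18 UMIs or 87.4 CPM (51.8 to 138) of Pdgfrb and 0 of Pdgfb, with a 95% upper limit of 17.9 CPM. What these barcodes are was not tested.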

How the results depend on the processing

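For 16 main values, 251 alternative values were computed. Of these, 198 stayed within the counting interval and 53 moved further, and the causes were not tested. A change of direction could be scored only for the log2 ratios, since a level has no sign, and none of the ratios changed sign. Counts of genes were judged apart, by a factor of 1.5. With the first calling step alone, the stromal log2 ratio of Pdgfra was 10.18 (9.53 otherwise) and mural-like Pdgfrb 110 CPM (179). With at most 10% mitochondrial counts, the stromal log2 ratios were 1.28 for Pdgfa (1.90) and 5.57 for Pdgfrb (6.62), and the endothelial one of Pdgfb was 2.56 (3.02). With a per-cell marker gate, levels in CPM were 133 for mural-like Pdgfa (205), 60.8 for injured Pdgfb (226), 23.5 for distal convoluted tubule-like Pdgfc (15.4), 250.5 for fibroblast-like Pdgfra (136), 112 for mural-like Pdgfrb and 4.57 for endothelial-like Pdgfrb (38.86), and the stromal log2 ratio of Pdgfra was 5.90. The log2 ratio of Pdgfc in the tubule family (0.33) was 0.081 at clustering resolution 0.5. Without mitochondrial genes in the total, injured Pdgfb was 247 CPM.

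As means over cells, the log2 ratios were 2.60 for stromal Pdgfa, 8.68 for stromal Pdgfra and 0.61 for tubule Pdgfc, and levels in CPM 147.5 for S2 Pdgfb (183), 272 for fibroblast-like Pdgfra and 22.5 for endothelial-like Pdgfrb. With equal library weights, levels in CPM were 176 for injured Pdgfb, 252.7 for S2 Pdgfb, 173 for fibroblast-like Pdgfra and 42.9 for S2 Pdgfrb (80.5). These weights count libraries with few cells in full, such as libraries 4 and 5 with 14 and 7 S2 cells. After ambient counts were subtracted, levels in CPM were 366 for mural-like Pdgfa, 204.6 for S2 Pdgfb, 211 for endothelial-like Pdgfb (169), 48.4 for endothelial-like Pdgfd (38.4), 328 for mural-like Pdgfrb and 48.5 for endothelial-like Pdgfrb. The log2 ratios were then 2.23 for stromal Pdgfa, 3.34 for endothelial Pdgfb, 4.26 for endothelial Pdgfd (3.92) and 6.98 for stromal Pdgfrb. An alternative chosen after seeing the data left out cells with a UMI of another lineage's markers, giving 147 CPM for S2 Pdgfb and 1.06 CPM for endothelial-like Pdgfrb. With genes of at least 1 UMI, 3045 genes were 4-fold higher in the stromal family (1891) and 3224 in the endothelial family (1883).

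Leaving out 1 library at a time, levels in CPM ranged from 140 to 245 for mural-like Pdgfa, 141 to 250.4 for injured Pdgfb, 141 to 229.9 for S2 Pdgfb, 120.4 to 213 for endothelial-like Pdgfb, 117 to 192 for fibroblast-like Pdgfra and 83.9 to 226 for mural-like Pdgfrb. The log2 ratios ranged from 1.79 to 2.06 for stromal Pdgfa, 2.75 to 3.30 for endothelial Pdgfb, 0.091 to 0.44 for tubule Pdgfc, 8.97 to 10.61 for stromal Pdgfra and 6.27 to 7.53 for stromal Pdgfrb. Not run were injured Pdgfb at resolution 0.5, with under 20 cells, and ambient subtraction in tubule classes. No paired analysis of conditions was possible because each condition has 1 sample, and no paired test of classes within libraries was run. The stromal values rest on 121 cells.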

Other observations

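Other clusters that took no name also held the members. S13, 97 cells led by Ednrb, Kdr and Ehd3 and all from library 2, had 151 CPM of Pdgfb, 75.4 CPM of Pdgfrb and 7 Pdgfra UMIs, or 44.0 CPM. C5, 3961 cells led by Cxcl1, Havcr1 and Fga with 2702 in library 3, held 16.4% of all Pdgfb UMIs at 36.0 CPM and 13.6% of Pdgfa UMIs at 45.2 CPM.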
